A study of Rattus norvegicus with 6 samples.

Results

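Potassium channel genes were taken as every gene in the deposited kidney tables whose symbol begins with Kcn followed by letters, apart from 1 symbol that the selection left out. They numbered 90 of the 17051 genes listed. The RNA came from kidney tissue of 6 male Sprague Dawley rats, 3 of the AL group (rats 61, 71 and 88) with a normal diet and 3 of the HD group (rats 64, 67 and 69) with a hyperammonemic diet. Per the study's methods the AL group ate standard chow powder ad libitum, the HD group ate chow mixed with an amino acid mixture modeled on hemoglobin at a daily 3 g per kg of body weight, and both were sampled after 7 days. No source used here gives the age of the rats or says which zone of the kidney was taken for sequencing. The only RNA extraction in the study's methods, given for qPCR, used a portion of the kidney and names no zone. The study calls the diet pre-hyperammonemic, and the rats had no other treatment by the labels.

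Potassium channels let potassium ions pass along their gradient across a membrane. In the nephron they set the voltage that drives salt uptake, return potassium to the blood on the basolateral side, and secrete potassium into the urine on the luminal side of the distal segments. The family falls into inward rectifiers (Kcnj), tandem-pore or leak channels (Kcnk), voltage-gated channels (Kcna to Kcnd, Kcnh and Kcnq), voltage-gated subunits that only modify a partner (Kcnf, Kcng, Kcns and Kcnv), channels opened by calcium or sodium (Kcnma, Kcnn and Kcnt), and accessory subunits that form no pore of their own (Kcnab, Kcne, Kcnip, Kcnmb and Kcnrg). The 90 genes split into 14, 13, 29, 10, 7 and 17 in that order.

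Estimated counts summed to between 12499938 and 30466453 per rat, with rat 69 of the HD group the deepest. A gene was tested where its summed and rounded count reached 30 in at least 1 rat. This held for 37 of the 90 genes (41.1%), against 67.8% of all genes. Of the 37, 13 reached 30 in every rat and 10 reached it only in rat 69, so the choice of tested genes leaned on the deepest library, which belongs to the HD group. In all, 14 genes reached 30 only in HD rats, 1 only in an AL rat and 22 in both groups. Of the 14 genes, 7 had a higher and 7 a lower fitted level in the HD group. Of the 53 genes not tested, 7 had a count of 0 in every rat, 15 summed to between 1 and 9 counts over the 6 rats, and 31 summed to 10 or more with no count above 24. A count of 0 over all 6 rats allows up to 0.0277 CPM, the count scaled to library size (3 counts of the total, counting error only). The genes at 0 were Kcna1, Kcna10, Kcnh5, Kcnh7, Kcnk9, Kcnk12 and Kcns2, of which Kcna1 and Kcna10 were on the list of known renal members.

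A small number of genes made up most of the family's RNA. Levels are compared between genes as TPM, which is scaled to transcript length, summed over a gene's transcripts and averaged over the 6 rats. Kcnj16, an inward rectifier subunit of the basolateral membrane in the distal nephron, was the most abundant with 169.7 ± 9.01 TPM among AL rats and 195.7 ± 30.1 in the HD group (SD, *n* = 3 each). It alone held 44.6% of the summed TPM of the family. Kcnk1, a weakly rectifying leak channel, came next with a mean of 53.1 TPM, and Kcnt1, the sodium-activated channel best known from neurons, followed with 37.0. These 3 genes held 66.7% of the family's TPM.

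Between 10 and 20 TPM lay 5 genes whose ranges over the 6 rats overlapped. They were Kcnk5 (mean 15.8 TPM), an alkali-sensitive leak channel of the proximal tubule, Kcnq1 (15.5), Kcnj15 (13.9), Kcnj12 (13.8) and Kcne1 (11.7), the accessory subunit of Kcnq1. A mean between 1 and 10 TPM was found for 19 genes and a mean below 1 TPM for 63. The inward rectifiers held 55.2% of the family's TPM, the tandem-pore channels 18.2%, the calcium- or sodium-activated channels 10.9%, the voltage-gated channels 6.31%, their modifying subunits 3.84% and the accessory subunits 5.54%.

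**Figure D1:**
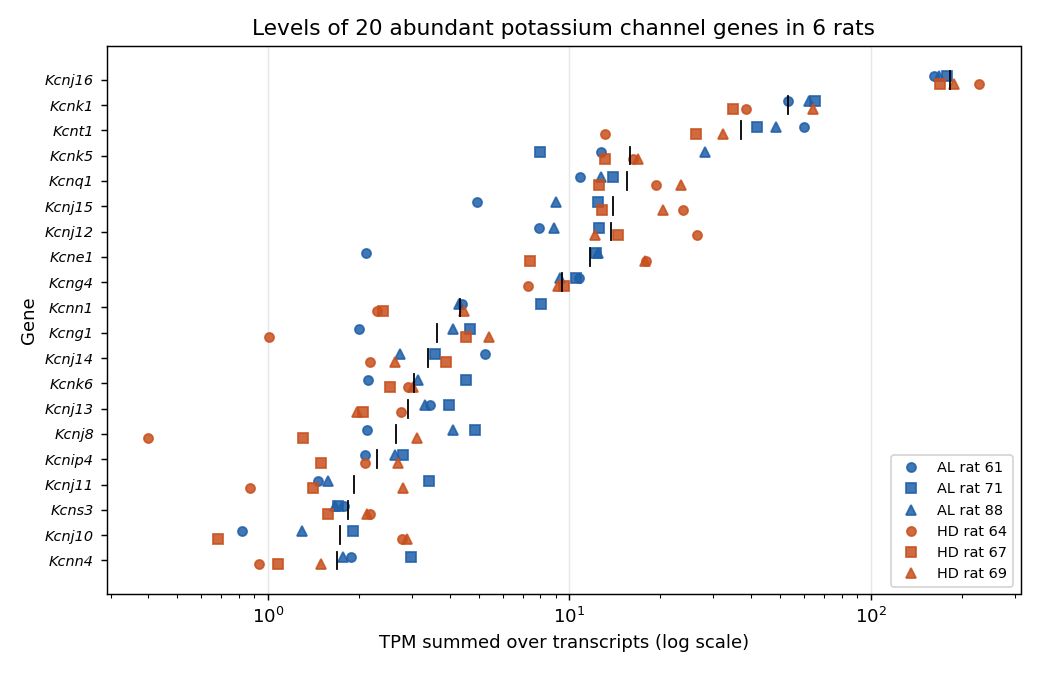
TPM of 20 abundant potassium channel genes, on a log axis, with 1 point per rat (blue AL, orange HD) and a black line at the mean of 6 rats. Kcnj16 stands apart from the rest at a mean of 182.7 TPM, and the points of Kcnt1 run from 13.2 TPM in HD rat 64 to 60.0 in AL rat 61.

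The diets were compared over all 11553 tested genes with edgeR's quasi-likelihood test on TMM-normalized counts, with Benjamini-Hochberg adjustment. With the adjusted *P* value limited to 0.05 or less, the background was 0.0% of all tested genes, and 0 of the 37 potassium channel genes passed, with a smallest adjusted *P* value of 0.398. DESeq2, the tool of the study's methods, passed 1.58% of all tested genes and 1 of the 37, Kcnj15. With a local dispersion fit DESeq2 passed 3.77% of all tested genes and 2 of the 37, Kcnj15 and Kcnj12. At an unadjusted *P* value below 0.05, edgeR gave 10.6% of all tested genes, and 7 of the 37 (18.9%). Of the 7 genes, 5 were higher in the HD group (13.5% of the 37, background 4.66%) and 2 were lower (5.41%, background 5.94%). Of the 5 higher genes, 2 (Kcna5 and Kcnh2) reached the minimum count only in HD rats. Without rat 88 of the AL group the number was 4 of 36 tested genes (11.1%, against 5.26% of all genes in that fit), 2 higher and 2 lower. Without rat 69, the deepest library, it was 6 of 27 (22.2%, against 15.6% of all genes), and the split turned around, with 2 higher and 4 lower. The groups did not overlap in 9 of the 37 genes (24.3%, background 14.3%), 6 with the HD rats above (background 7.25%) and 3 with them below (background 7.01%). The 6 genes include Kcna5 and Kcnh2, which were tested only through HD rats, so this number also leans on the choice of tested genes. Over the 37 genes 15 were higher and 22 lower in the HD group, and the median log2 ratio of HD over AL was -0.09 (single-gene ratios below carry ± 1 standard error), beside a median of 0.0067 over all tested genes. Without rat 67 the median was 0.06. With 3 rats against 3, an exact permutation test (two-sided) cannot give a *P* value under 0.1.

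**Figure D2:**
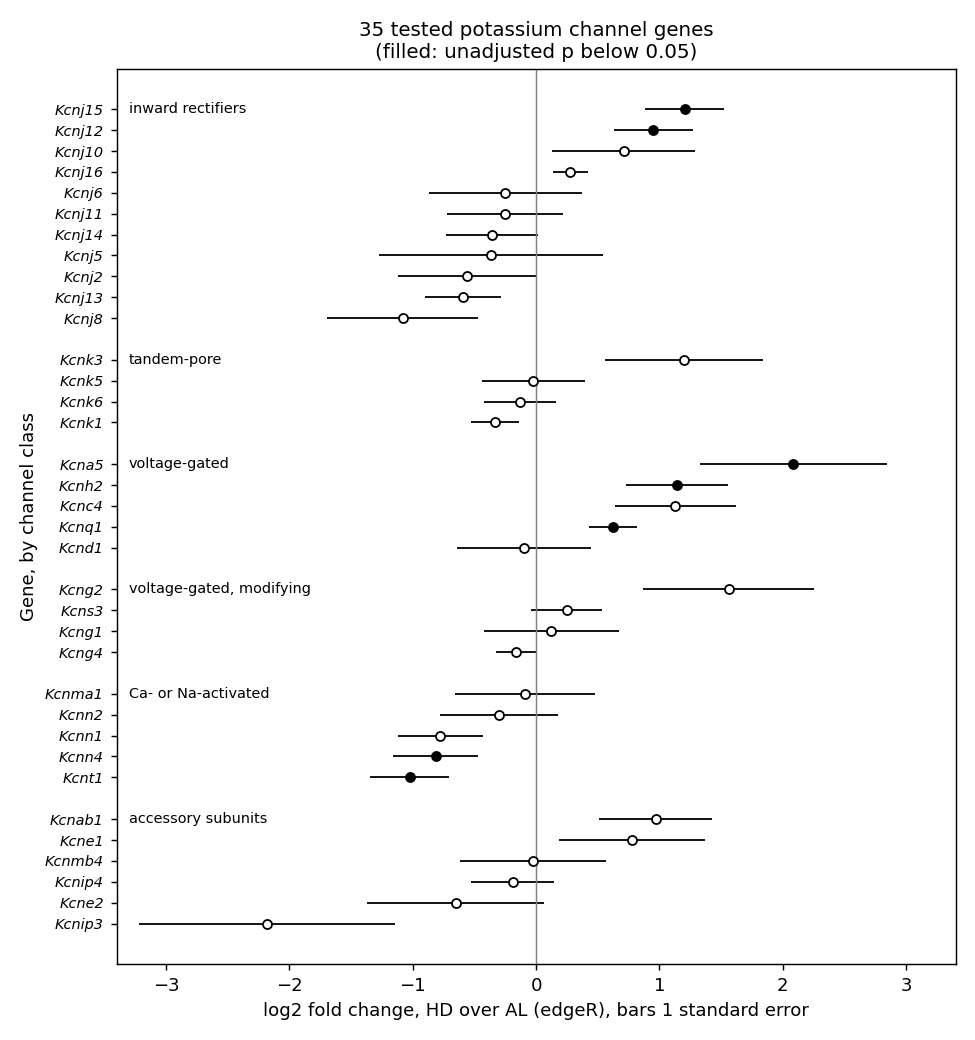
Log2 ratio of 35 of the 37 tested potassium channel genes, HD over AL, with bars of 1 standard error, grouped by channel class. Filled points mark the 7 genes with an unadjusted *P* value below 0.05, which lie between -1.02 (Kcnt1) and 2.09 (Kcna5).

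Promoter sequences are shown for the gene with the smallest *P* value on each side, Kcnj15 (higher) and Kcnt1 (lower), to show the bases upstream of the gene that stood lowest by *P* value in each direction. The sequences are from RefSeq on build GRCr8, which is not the build of the counts, and each line holds the 250 bases before an annotated start, 5′ to 3′ on the + strand. For Kcnj15 this is chr11:48070700-48070949, and for Kcnt1 it is chr3:29081089-29081338, the first of 2 annotated starts. Which start the kidney uses was not measured. Capitals mark CCAAT and GGGCGG on either strand, so that a match on the other strand reads ATTGG or CCGCCC.
Kcnj15: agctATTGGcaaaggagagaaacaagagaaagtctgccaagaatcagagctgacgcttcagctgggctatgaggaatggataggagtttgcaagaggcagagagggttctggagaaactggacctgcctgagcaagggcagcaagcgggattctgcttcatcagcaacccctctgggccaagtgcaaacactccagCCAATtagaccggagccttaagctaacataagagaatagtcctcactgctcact
Kcnt1: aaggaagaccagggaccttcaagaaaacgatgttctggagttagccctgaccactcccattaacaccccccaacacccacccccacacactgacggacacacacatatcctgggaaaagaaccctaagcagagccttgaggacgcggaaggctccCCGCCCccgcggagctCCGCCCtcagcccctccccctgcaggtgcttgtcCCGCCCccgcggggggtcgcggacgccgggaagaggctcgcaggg

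The Kcnj15 window was 50.8% G and C and held 2 matches to CCAAT and 0 to GGGCGG. The Kcnt1 window was 64.8% G and C and held 3 matches to GGGCGG and 0 to CCAAT. The median over all 33469 windows of this length was 51.2% G and C. CCAAT was in 34.0% of all windows and GGGCGG in 30.5%. Of the 90 genes, 60 had a window (65 windows in all), and GGGCGG was in 50.8% of these and CCAAT in 24.6%. TATAAA, searched on both strands, was in 12.9% of all windows and 1.54% of those of the potassium channel genes, and in neither of the windows printed. GTTAAT was in 6.45% of all windows and 6.15% of those of the potassium channel genes. It had 1 match in the Kcnt1 window, which is not in capitals, on the other strand 192 bases before the start, and 0 in the Kcnj15 window. A match describes the letters and not the binding of a factor.

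Markers of nephron segments and other cells moved with the diet groups in the same libraries. In bulk tissue, fewer cells of a type and less RNA per cell cannot be told apart. All 5 inner medulla markers (Slc14a2, Aqp4, Akr1b1, Slc6a12 and Slc5a3) were lower in the HD group at an unadjusted *P* value below 0.05. Their summed level was 237 to 721 CPM among AL rats and 128 to 195 in the HD group. Taken singly, Aqp4 and Slc6a12 did not overlap between the groups, while Slc14a2, Akr1b1 and Slc5a3 did. Akr1b1 alone made up 390 of the 721 CPM in AL rat 88, and it was at 23.3 CPM in AL rat 61. The 3 distal convoluted tubule markers present in the files (of 4 listed) summed to 63.0 to 131 CPM among AL rats and 191 to 699 in the HD group, though Pvalb among them was at or near 0 in every rat. The 8 proximal tubule markers summed to 7639 to 9062 and 10098 to 11654 CPM, and the 8 podocyte markers to 77.2 to 168 and 223 to 501. The 10 leukocyte markers, of which 9 were tested and all 9 were lower, summed to 68.3 to 154 and 47.5 to 73.0 CPM. Summed levels of the thick ascending limb, endothelial, vascular smooth muscle and pericyte lists overlapped between the groups, as did those of the principal cell, intercalated cell, fibroblast, urothelium, adipose and nerve lists. Skeletal muscle markers summed to at most 6.80 CPM in any rat, and the groups overlapped. Adrenal markers summed to 9.33 to 11.7 CPM among AL rats and 7.54 to 9.08 in the HD group, without overlap. Only 2 of the 8 adrenal markers were tested, and taken singly each of the 2 overlapped. As no source used here gives the zone of the kidney that was sampled, a difference in the zone taken and a difference by diet cannot be told apart in these markers. The part of these differences in the channel results below was not tested.

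**Figure D3:**
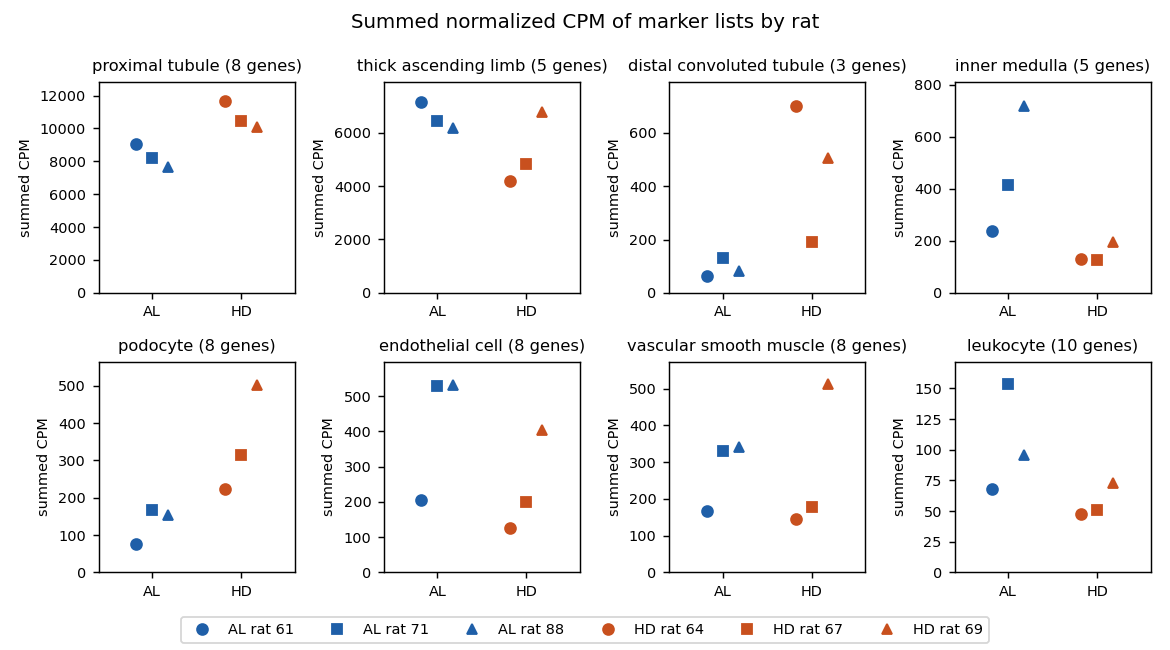
Summed normalized CPM of 8 marker lists in each rat, on axes that start at 0, with AL rats in blue and HD rats in orange. The inner medulla, distal convoluted tubule, proximal tubule and podocyte lists do not overlap between the groups, while the thick ascending limb, endothelial, vascular smooth muscle and leukocyte lists do.

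The inward rectifiers pass current more readily into the cell than out of it and hold the resting voltage of tubule cells. Of 11 tested, 4 were higher and 7 lower under HD, and the median log2 ratio was -0.25. Their summed TPM was 189, 226 and 204 in AL rats 61, 71 and 88 and 289.6, 207 and 239.7 in HD rats 64, 67 and 69, and the groups overlapped through rat 67. Kcnj15, a basolateral inward rectifier of renal epithelium that can pair with Kcnj16, had the smallest *P* value of the family. On rn5 it lies on chromosome 11 from 39154504 to 39171712. It was at 5.0, 10.5 and 8.14 CPM in AL rats 61, 71 and 88 and at 23.5, 12.9 and 18.5 CPM in HD rats 64, 67 and 69. Every HD rat was above every AL rat, a 2.30-fold difference. The log2 ratio was 1.20 ± 0.32 (edgeR, adjusted *P* = 0.398), and DESeq2 gave an adjusted *P* value of 0.0407. Leaving out single rats gave ratios from 0.97 to 1.47.

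Kcnj12, a strong inward rectifier best known from heart and skeletal muscle, lies on chromosome 10 from 47055582 to 47114622 of rn5. It was at 12.4, 16.3 and 12.4 CPM in AL rats 61, 71 and 88 and at 40.5, 22.5 and 16.9 CPM in HD rats 64, 67 and 69. The groups did not overlap, but rat 69 was only just above the highest AL rat. The log2 ratio was 0.95 ± 0.32 (edgeR, adjusted *P* = 0.406), and it was 0.52 without rat 64. DESeq2 gave an adjusted *P* value of 0.139. The skeletal muscle markers summed to 6.22 to 6.75 CPM among AL rats and 4.07 to 6.80 in the HD group, and rat 64, with the most Kcnj12, had the lowest of these sums. Mylpf alone was 4.45 of the 6.75 CPM in rat 61 and 3.48 of the 4.07 CPM in rat 64. Any link of these markers to the level of Kcnj12 was not tested.

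The most abundant member, Kcnj16, was at 197, 182 and 182 CPM in AL rats 61, 71 and 88 and at 271, 204 and 206 CPM in the HD rats 64, 67 and 69. Every HD rat was above every AL rat, by a narrow margin in rats 67 and 69. The log2 ratio was 0.28 ± 0.14 (edgeR, adjusted *P* = 0.536), and it was 0.13 without rat 64. Kcnj10, its partner in the distal convoluted tubule, was far less abundant, with a mean of 1.73 TPM. It was at 0.79, 1.55 and 1.12 CPM in the AL rats 61, 71 and 88 and at 2.63, 0.65 and 2.49 CPM in the HD rats 64, 67 and 69. HD rat 67 was below all AL rats, and the log2 ratio was 0.71 ± 0.58 (edgeR, adjusted *P* = 0.735). Without rat 67 it was 1.13 with an unadjusted *P* value below 0.05, and without rat 64 it was 0.45. Kcnj10 reached the minimum count of 30 only in HD rats 64 and 69.

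Within the HD group Kcnj10, Kcnj12, Kcnj15 and Kcnj16 did not share an order of rats. Rat 64 was the highest for all 4 genes, while rat 67 was the lowest for Kcnj10, Kcnj15 and Kcnj16 and rat 69 for Kcnj12. The distal convoluted tubule markers were also highest in rat 64 (699 CPM) and lowest in rat 67 (191 CPM) of the HD group. Slc12a3, the salt transporter that defines this segment, was at 287, 51.5 and 216 CPM in rats 64, 67 and 69, against 18.1 to 27.6 CPM in the AL group. Rat 64 was also the highest HD rat for the proximal tubule list (11654, 10436 and 10098 CPM in rats 64, 67 and 69). The same held for the principal cell, intercalated cell and adrenal lists, while the remaining marker lists were highest in rat 67 or 69. Any link of these lists to the 4 genes was not tested.

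Among the other inward rectifiers, Kcnj8, the pore of the ATP-sensitive channel of vascular smooth muscle, was at 2.30, 4.38 and 3.97 CPM in the AL rats 61, 71 and 88 and at 0.42, 1.40 and 3.01 CPM in the HD rats 64, 67 and 69. The groups overlapped, with a log2 ratio of -1.08 ± 0.61 (edgeR, adjusted *P* = 0.588), and it was -0.68 without rat 64 and -1.89 without rat 69, the latter with an unadjusted *P* value below 0.05. In both groups the rats with the least Kcnj8 were also those with the least endothelial marker RNA. The endothelial list summed to 207, 529 and 533 CPM in rats 61, 71 and 88 and to 125, 198 and 403 CPM in rats 64, 67 and 69. Rats 61 and 64 were also the lowest of their groups for the vascular smooth muscle, fibroblast, leukocyte, nerve and podocyte lists. Any link of these lists to the level of Kcnj8 was not tested. Kcnj13, a weakly rectifying channel of transporting epithelia, was at 2.51 to 2.94 CPM among AL rats and 1.50 to 2.29 CPM in the HD group without overlap (log2 ratio -0.59 ± 0.31, adjusted *P* = 0.554 by edgeR). Kcnj11, the pore of the ATP-sensitive channel of the pancreatic beta cell, had a log2 ratio of -0.25 ± 0.47, Kcnj2 of -0.56 ± 0.56 and Kcnj5 of -0.36 ± 0.91, all with overlapping groups. Kcnj3, also listed as a renal member, had a single count over the 6 rats.

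**Figure D4:**
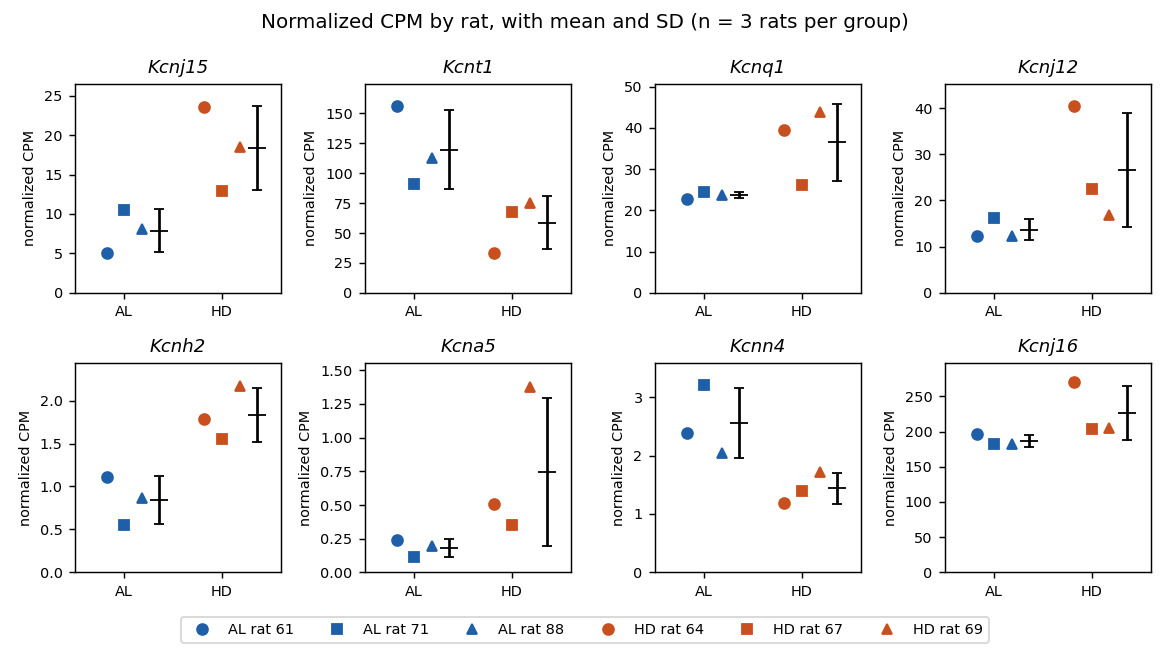
Normalized CPM in each rat for the 7 potassium channel genes with an unadjusted *P* value below 0.05 and for Kcnj16, on axes that start at 0, with black bars for the mean and SD of 3 rats. In each panel the HD points lie all above or all below the AL points, and the Kcna5 panel shows 1 HD rat (rat 69, 1.37 CPM) far above the other two.

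Tandem-pore channels carry background potassium current without a voltage sensor. Only 4 of the 13 were tested, 1 was higher and 3 were lower, with no unadjusted *P* value below 0.05 in edgeR. The summed TPM of the tandem-pore channels was 71.3, 81.0 and 95.4 in AL rats 61, 71 and 88 and 58.8, 53.4 and 87.6 in HD rats 64, 67 and 69, with overlap between the groups. Kcnk1 was at 93.6, 95.8 and 97.3 CPM in the AL rats 61, 71 and 88 and at 65.7, 60.6 and 101 CPM in the HD rats 64, 67 and 69. The AL rats lay close together, while HD rats 64 and 67 were below them and rat 69 above (log2 ratio -0.33 ± 0.19, adjusted *P* = 0.605 by edgeR). The ratio was -0.59 without rat 69, with an unadjusted *P* value below 0.05 in that fit, and -0.19 without rat 67. Kcnk5 had means of 35.9 ± 22.7 CPM among AL rats and 35.3 ± 3.57 in the HD group (SD, *n* = 3 each). Its spread lay in the AL rats, from 16.1 CPM in rat 71 to 60.7 in rat 88, and its log2 ratio was -0.02 ± 0.42. Without rat 88 the value was 0.60. Kcnk2, a leak channel of vessels, was not tested, with 3 to 24 counts per rat. Kcnk6 was listed at 2 loci, so its counts were joined, and its log2 ratio was -0.13 ± 0.29.

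Kcnk3, an acid-sensitive leak channel that is also known from brown fat and the adrenal gland, reached the minimum count only in rat 69. It therefore had to be high in the HD group to be tested at all. It was at 0.95, 0.39 and 0.33 CPM in the AL rats 61, 71 and 88 and at 0.51, 1.30 and 1.85 CPM in the HD rats 64, 67 and 69, with a log2 ratio of 1.20 ± 0.64 (edgeR, adjusted *P* = 0.560). The unadjusted edgeR *P* value was below 0.05 without rat 61, the AL rat with the most Kcnk3 (log2 ratio 1.79, 14.9% of all genes in that fit). It was also below 0.05 without rat 64, the HD rat with the least (1.53, 5.53% of all genes). The brown fat gene Ucp1 was at 4.69, 0.17 and 0.40 CPM in the AL rats and at 0.34, 35.7 and 46.8 CPM in the HD rats, so the 3 rats with the most Ucp1 were also the 3 with the most Kcnk3. The 6 adipose markers summed to 146 to 240 CPM among AL rats and 169 to 303 in the HD group, all 6 were higher in the HD group by their fold change, and 2 of them (Plin1 and Ucp1) had an unadjusted *P* value below 0.05. The adrenal markers summed to less in every HD rat than in any AL rat, the opposite direction to Kcnk3. Only 2 of these 8 markers, Hsd3b1 and Cyp21a1, were tested, and taken singly each overlapped between the groups. The part of either list in the level of Kcnk3 was not tested.

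The voltage-gated channels open when the membrane is depolarized. Of the 29 that form a pore by themselves, 7 were tested, and 5 were higher and 2 lower under HD, and the median log2 ratio was 0.62. Of these 7 genes 4 reached the minimum count only in HD rats, 3 of them among the 5 higher, so the count by direction and the median lean on the choice of tested genes. Kcnq1, a slow channel that Kcne1 accompanies in the brush border of the proximal tubule, lies on chromosome 1 from 223154713 to 223490458 of rn5. It was at 22.9, 24.4 and 23.8 CPM in AL rats 61, 71 and 88 and at 39.6, 26.1 and 44.0 CPM in HD rats 64, 67 and 69. The AL rats lay close together, and HD rat 67 was only just above the highest of them. The log2 ratio was 0.62 ± 0.20 (adjusted *P* = 0.406 by edgeR and 0.178 by DESeq2), and it ranged from 0.47 to 0.82 without each rat in turn. Kcne1 was at 0.79, 3.82 and 4.17 CPM in the AL rats 61, 71 and 88 and at 6.54, 2.75 and 5.98 CPM in the HD rats 64, 67 and 69. HD rats 64 and 69 were above all AL rats for Kcne1 and rat 67 was not, with a log2 ratio of 0.78 ± 0.59 (edgeR, adjusted *P* = 0.710). Without rat 61, the AL rat with the least Kcne1, the ratio was 0.34.

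Kcnh2, the rapid repolarizing channel of the heart, was at 1.11, 0.55 and 0.86 CPM in the AL rats 61, 71 and 88 and at 1.78, 1.55 and 2.17 CPM in the HD rats 64, 67 and 69. The groups did not overlap, a 2.20-fold difference (log2 ratio 1.14 ± 0.41, adjusted *P* = 0.409 by edgeR and 0.393 by DESeq2). The counts behind these values were 10 to 14 in the AL rats and 21 to 68 in the HD rats, so that Kcnh2 reached the minimum of 30 only in HD rats 67 and 69, the group where it was high. Kcna5, a channel of vascular smooth muscle and heart, had 2 or 3 counts in each AL rat and 6, 7 and 43 in HD rats 64, 67 and 69. It was tested only because of rat 69, so that it had to be high in the HD group to be tested at all. Its log2 ratio was 2.09 ± 0.76 (adjusted *P* = 0.416 by edgeR and 0.430 by DESeq2). Rat 69 also had the highest sum of the 8 vascular smooth muscle markers, at 512 CPM against 146 and 178 in the other HD rats and 168 to 342 in the AL group. It was the highest of all rats for the podocyte, pericyte and urothelium lists as well. Any link of these lists to the level of Kcna5 was not tested.

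Of the 10 modifying subunits 4 were tested. Kcng4, which forms channels only together with a pore-forming partner, was the most abundant of them at 26.5 ± 3.78 CPM among AL rats and 23.6 ± 3.38 in the HD group (SD, *n* = 3 each), a log2 ratio of -0.16 ± 0.16. Kcng1 and Kcns3 had log2 ratios of 0.12 ± 0.55 and 0.25 ± 0.28. None of the 4 had an unadjusted *P* value below 0.05. The T cell channel Kcna3 was not tested, with 5 counts in AL rat 71, 1 in AL rat 88 and 0 in the other 4 rats.

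All 5 tested channels opened by calcium or sodium had a lower fitted level in the HD group (median -0.78, against 0.0067 over all tested genes). The value of Kcnma1 turned sign when single rats were left out (-0.31 to 0.28). An unadjusted edgeR *P* value below 0.05 was found for 2 of the 5 (40%, background 10.6%), both lower (background 5.94%). Of the 5 genes, 2 reached the minimum count only in HD rats, although their fitted levels were lower there. The summed TPM of the 7 genes of this class was 67.6, 54.7 and 56.6 in AL rats 61, 71 and 88 and 17.4, 30.6 and 39.9 in HD rats 64, 67 and 69, without overlap, and Kcnt1 made up most of it. Kcnt1, with 32 exons, spans bases 8687852 to 8725541 of rn5 chromosome 3. It was at 156, 90.6 and 113 CPM in AL rats 61, 71 and 88 and at 33.3, 67.7 and 74.8 CPM in HD rats 64, 67 and 69. Every HD rat was below every AL rat, and the AL mean was 2.03 times the HD mean by the fit. The log2 ratio was -1.02 ± 0.32 (adjusted *P* = 0.406 by edgeR and 0.0584 by DESeq2), and without each rat in turn it ranged from -1.24 to -0.75. No other gene in the files has exons that overlap those of Kcnt1. Slc12a1, the salt transporter that defines the thick ascending limb, was at 2518, 1745 and 1704 CPM in rats 61, 71 and 88 and at 676, 1043 and 1563 CPM in rats 64, 67 and 69. Rat 61 was highest and rat 64 lowest for both genes, and the groups overlapped for neither gene. The whole list of 5 thick ascending limb markers overlapped between the groups (6185 to 7152 CPM among AL rats and 4189 to 6787 in the HD group).

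Kcnn4, a calcium-activated channel of red cells, leukocytes and epithelia, was at 2.38, 3.21 and 2.05 CPM in AL rats 61, 71 and 88 and at 1.19, 1.40 and 1.73 CPM in HD rats 64, 67 and 69. The groups did not overlap, with a log2 ratio of -0.81 ± 0.34 (adjusted *P* = 0.468 by edgeR and 0.506 by DESeq2). The unadjusted *P* value was at or above 0.05 in each of the 6 fits that left out 1 rat. Rat 71 had the most Kcnn4 and also the highest sum of leukocyte markers (154 CPM), and rat 64 the least of both (47.5 CPM). Between these the orders differed, as rat 61 had more Kcnn4 than rat 88 but a lower leukocyte sum (68.3 against 95.4 CPM). The fibroblast list was also highest in rat 71 and lowest in rat 64. Any link of either list to the level of Kcnn4 was not tested. Kcnn1, a small-conductance channel, was at 4.24 to 7.37 CPM among AL rats and 2.46 to 4.41 in the HD group (log2 ratio -0.78 ± 0.35, adjusted *P* = 0.487 by edgeR). Its unadjusted *P* value was below 0.05 without rat 88 (-0.93) or without rat 69 (-1.10). Kcnma1, the large-conductance channel of flow-dependent potassium secretion, had only 7 to 35 counts per rat and a log2 ratio of -0.09 ± 0.57. Kcnn3, listed with it, had 20 counts in rat 88 and at most 8 in any other rat.

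Of the 17 accessory subunits 6 were tested, 2 were higher and 4 lower, with no unadjusted *P* value below 0.05. Kcnip3, which binds voltage-gated channels and also acts as a calcium-dependent transcriptional repressor, had a log2 ratio of -2.18 ± 1.04 (edgeR, adjusted *P* = 0.510), and without rat 61 of -2.66 with an unadjusted *P* value below 0.05. It was at 0.16, 0.89 and 2.51 CPM in AL rats 61, 71 and 88 and at 0, 0.30 and 0.38 CPM in HD rats 64, 67 and 69, and it was tested only because of AL rat 88, so that it had to be high in the AL group to be tested at all. Rat 88 also had the highest inner medulla sum, 721 CPM, of which Akr1b1 made up 390. Of these markers Akr1b1 and Aqp4 were highest in rat 88, Slc14a2 and Slc6a12 in rat 71, and Slc5a3 in rat 61. Any link to the level of Kcnip3 was not tested. Kcnip4, of the same family, had a log2 ratio of -0.19 ± 0.34 with overlapping groups. The subunits of the large-conductance channel were scarce. Kcnmb4 had 5 to 44 counts per rat and a log2 ratio of -0.03 ± 0.59, Kcnmb1 had at most 21 counts in a rat, and Kcnmb2 at most 8. Kcne2 had a log2 ratio of -0.65 ± 0.72, which was -0.0068 without rat 88 and -1.44 without rat 69. Kcne3 was not tested, with 4 to 15 counts per rat.

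Several members lie close to each other on the genome. Kcnj16 and Kcnj2 are 44.7 kb apart on chromosome 10 of rn5 and had fitted log2 ratios of 0.28 and -0.56. Kcne1 and Kcne2, 50.8 kb apart on chromosome 11, had values of 0.78 and -0.65. In both pairs the point estimates had opposite signs, but none of the 4 genes passed the test. Over all 90 genes, 7 pairs had spans within 100 kb of each other, and in the remaining 5 pairs at least 1 gene was not tested.

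Channels work with partner subunits and transporters outside the Kcn symbols, which were taken from lists. Of 9 partner subunits, 4 were tested with no unadjusted *P* value below 0.05. Abcc8 and Abcc9, the sulfonylurea receptors that enclose the ATP-sensitive pores, had log2 ratios of -0.02 ± 0.25 and -0.55 ± 0.31. Of 37 genes of potassium transport and its control along the nephron, 32 were tested and 16 were higher and 16 lower in the HD group. No gene passed the adjusted threshold, while 3 were higher and 6 lower at an unadjusted *P* value below 0.05 (backgrounds 4.66% and 5.94%). The 3 higher genes were Slc12a3 (log2 ratio 2.93 ± 0.58), Hsd11b2 (0.64 ± 0.16), which protects the mineralocorticoid receptor from glucocorticoids, and the sodium channel subunit Scnn1b (0.53 ± 0.17). The 6 lower genes were Slc12a1 (-0.86), Tsc22d3 (-0.68), Fxyd4 (-0.43), Stk39 (-0.35), Slc12a2 (-0.32) and Ppp1cb (-0.26).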

How the data were processed

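Kidney poly(A) RNA of 6 rats was sequenced on an Illumina instrument in single-end mode, 1 library per rat, from a TruSeq kit that does not mark strand. The authors quantified transcripts with RSEM 1.1.15 at default parameters on University of California Santa Cruz gene definitions for rn5. They deposited an expected count (estimated count, not normalized) and its posterior mean for each transcript. The authors also deposited TPM, scaled by RSEM to transcript length and library size. Filters on reads are not given in the sources used here, and FPKM was not used.

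Expected counts were summed per gene and rounded. The main test was edgeR 4.0.16 (R 4.3.3) with a quasi-likelihood fit, TMM normalization, diet as the only factor, a minimum of 30 counts reached by 1 or more rats and Benjamini-Hochberg adjustment over all tested genes (common biological coefficient of variation 0.242). The standard error is the absolute log2 fold change over the square root of F. CPM are TMM-normalized. DESeq2 1.42.0 was an alternative. Exact permutation tests used log2 values of CPM plus 0.5. The edgeR and DESeq2 fits were tested on simulated data. Named genes were those with an unadjusted *P* value below 0.05, the 3 most abundant tested genes of each class and a list of known renal, vascular and immune members. Individual values of 2 tested genes that enter the counts and medians are not reported here. The remaining genes named were chosen after their values were seen, among them those at 0, Kcnj13, and genes of the lists. The members and lists were chosen with earlier results of these data known. The rats are separate animals, and no batch is given by the labels. Tables and plots used Python 3.11.15, pandas 2.3.3, scipy 1.17.1 and matplotlib 3.10.9.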

Additional observations from a re-analysis of the deposited data

How the results depend on the processing

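The test was repeated under 14 alternatives. With the adjusted *P* value limited to 0.05, the number of potassium channel genes was 0 in each edgeR fit, including the 6 that left out 1 rat each (from 0 to 0). It was 1 with DESeq2 at its default settings (Kcnj15) and 2 with DESeq2 and a local dispersion fit (Kcnj15, adjusted *P* = 0.00817, and Kcnj12, adjusted *P* = 0.0469). That fit passed 3.77% of all tested genes. At an unadjusted *P* value below 0.05, edgeR gave 7 genes and DESeq2 at its default settings 6. The number was 12 with the local dispersion fit (15.6% of all tested genes), 11 of 83 tested genes with a minimum count above 0 in at least 1 rat (10.2% of all), and 8 of 24 when every rat had to reach 10 counts (10.1% of all). It ranged from 4 (without rat 88, 5.26% of all) to 10 (without rat 67, 8.31% of all) in the fits that left out 1 rat. Library size alone moved the median of all tested genes to -0.07 and that of the 37 genes to -0.15 and kept the count at 7. The median of the tested potassium channel genes ranged from -0.13 to 0.06 when rats were left out.

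The sign of a log2 fold change turned in 7 named genes, each time when a rat was left out, and under no other alternative. The ranges were -0.20 to 0.54 for Kcng1, -0.065 to 0.25 for Kcnmb4, -0.76 to 0.16 for Kcnj11, -0.30 to 0.10 for Kcnk6, -0.69 to 0.13 for Kcnj5, -0.38 to 0.60 for Kcnk5 and -0.31 to 0.28 for Kcnma1. The cause was not tested. Of the 7 genes with an unadjusted *P* value below 0.05, Kcnj15 stayed below it in 14 of 14 alternatives, Kcnq1 and Kcnt1 in 13, Kcnj12 in 12, Kcnh2 in 11, Kcna5 in 10 of the 12 in which it was tested, and Kcnn4 in 6. No paired analysis was possible because the labels give the rats no number shared between the groups. At these depths 53 of 90 genes did not reach 30 counts in any rat, and whether more depth would change this was not tested.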
